A study of Mus musculus with 26 samples.

Results

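The 10 genes described here mark skeletal muscle and its precursor cells and were followed through every library of a study of motor neuron spheroids: Pax7, Myf5, Myod1, Myog, Cdh15, Chrna1, Acta1, Myh3, Ckm and Des. They are 10 of the 56941 genes in the deposited tables and were found there by symbol. The spheroids were grown from mouse embryonic stem cells of the line HBG3 mESC HB9::GFP, in which HB9 (Mnx1), a gene of motor neurons, drives a fluorescent reporter, and whose genotype is labelled heterozygous blastocysts. The stem cells were expanded on feeder cells and then turned into neurons with retinoic acid and purmorphamine. All groups share this line and were made from spheroids of about day 8 on a fibrin platform. Control spheroids (n = 6) are labelled as the biochemical control. The low-intensity (n = 6) and high-intensity (n = 6) groups are labelled biochemical treatments of those strengths, and the treatment text describes medium carrying factors released by muscle. The series text describes medium from optogenetic muscle that was lit at 1 Hz for 30 min or left unlit, but its sample names are not those of the high- and low-intensity libraries, so which medium each of these groups received could not be told. The static array (n = 4) held the magnetic silicone array without movement, and the actuated array (n = 4) was moved at 4 Hz for 30 min each day. No label says whether libraries of a group are separate cultures, so p-values measure only the spread between these samples.

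Skeletal muscle forms from precursors that carry the transcription factor Pax7 and then switch on the myogenic regulators Myf5 and Myod1, followed by myogenin (Myog) as myoblasts fuse into fibres. Fibres then fill with contractile proteins such as skeletal actin (Acta1) and embryonic myosin (Myh3), and place the acetylcholine receptor, whose alpha subunit is Chrna1, under the endings of motor neurons. Motor neurons are the partners of muscle and are not themselves of the muscle lineage. Desmin (Des), an intermediate filament protein, is also made by smooth muscle, heart muscle and pericytes.

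The depth of the libraries set what could be seen. Total estimated counts ran from 1536 to 13162635 per library, and 21 of the 26 libraries held over 1000000 counts on protein-coding genes; they are called deeper here. The remaining 5 were static-array replicate 3, replicates 4 and 5 of high intensity, replicate 6 of low intensity and replicate 4 of the controls. In low-intensity replicate 6, all 10 genes were at 0 among its 1536 counts. Static-array replicate 3 had 613344 counts spread over 31731 genes, the most genes of any library. In control replicate 4, mitochondrial and rRNA genes took 78.7% of the counts, against 7.41% to 19.1% in all other libraries, and that library enters the control ranges and pooled limits. Rates are given as CPM, the count of a gene per 1000000 counts of its library, with no correction for gene length. A count of 0 in a deeper library allows a rate of up to 0.228 to 1.93 CPM (3 counts of its total), and such limits cover counting error only. Motor neuron markers summed to between 129 and 279 CPM in the deeper libraries, with 6 of 8 detected in each of them. In bulk RNA, fewer cells of a type and less RNA per cell cannot be told apart.

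Most of the 260 values of these genes were at or near 0. There was no count in 146 of them and 1 to 3 counts in another 48, and only 35 exceeded 10 counts. Of the 5047 counts assigned to the 10 genes in all libraries, Des held 4467, or 88.5%. Per length, in the deposited length-scaled TPM values, Des had a median of 9.35 over all 26 libraries, Acta1 0.878, Cdh15 0.0529 and Myh3 0.0501. The other 6 had a median TPM of 0. Summed over the 10 genes, the rate had a median of 18.6 CPM in the controls (0 to 62.9), 43.2 in low intensity (0 to 176), 112 in high intensity (4.11 to 175), 57.4 in the static array (6.61 to 114) and 20.7 in the actuated array (4.61 to 26.8). These ranges overlap between all groups. Without Des the medians were 1.10 CPM in the controls, 7.96 in low intensity, 5.01 in high intensity, 2.83 in the static array and 1.57 in the actuated array. Over the deeper libraries the medians without Des were 2.20, 10.1, 5.01, 1.91 and 1.57 CPM in the same order, so that both array groups turn from above to below the controls.

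**Figure D1:**
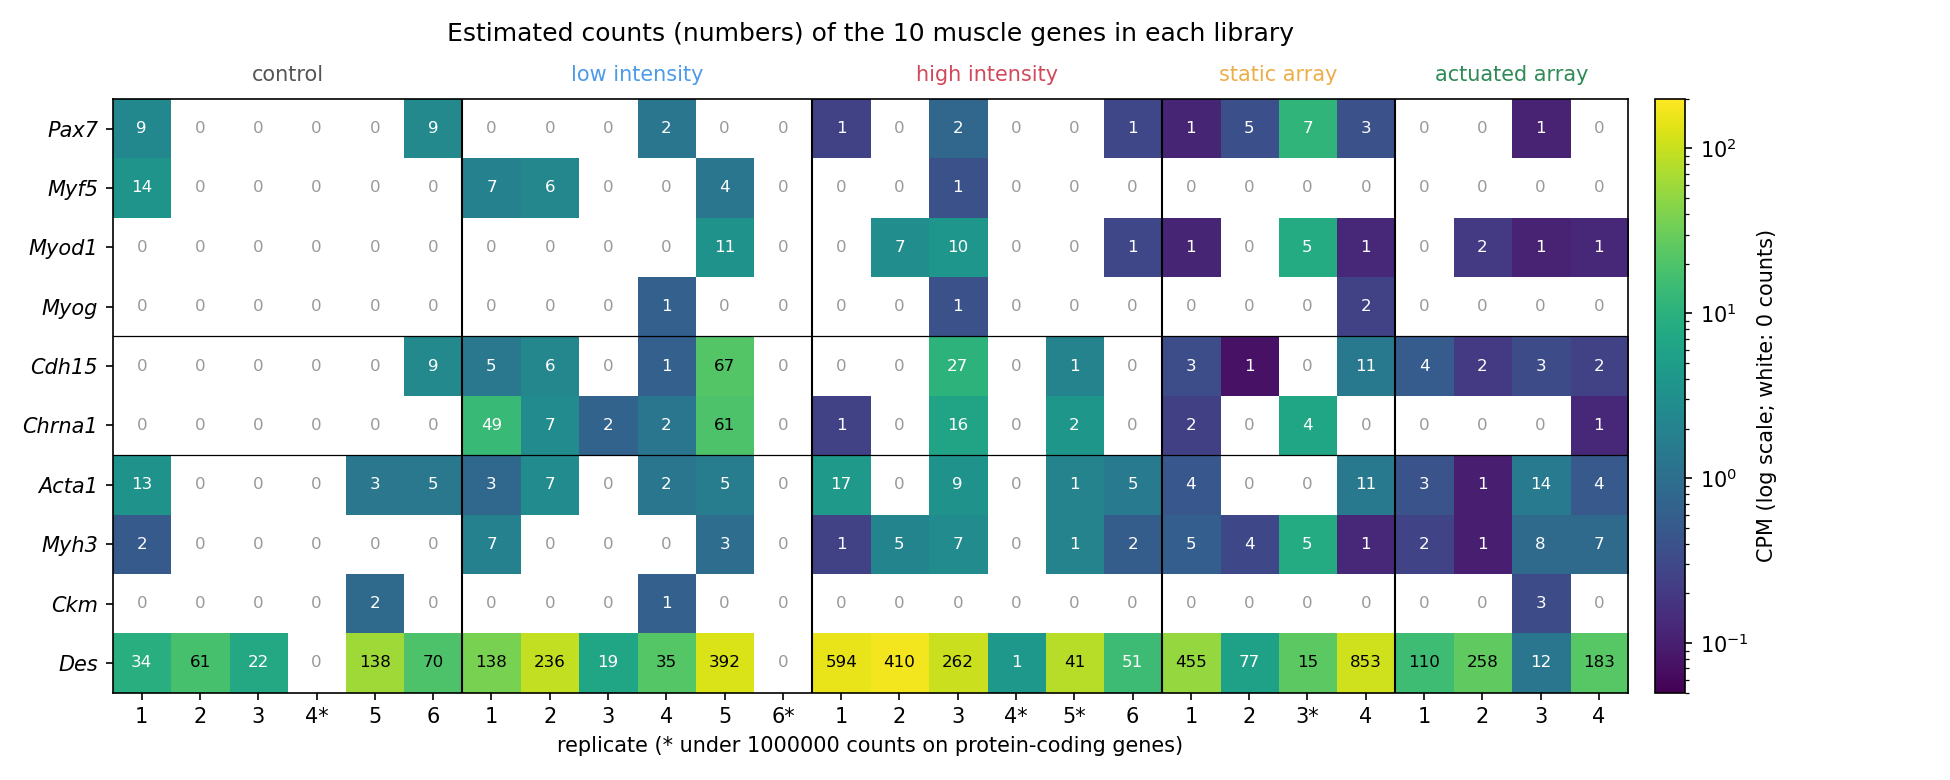
Estimated counts (numbers in the cells) of the 10 genes, in rows from lineage factors at the top to contractile proteins at the bottom, in each of the 26 libraries in columns; the colour gives the rate in CPM on a log scale and white cells hold no count. Des is filled in nearly every column, while Chrna1 and Cdh15 reach 61 and 67 counts in low-intensity replicate 5 and stay white or dark in most others.

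The transcription factors of the lineage gave only scattered counts. Pax7, which marks muscle precursors and also dorsal neural progenitors, had 41 counts over all libraries. They lay mainly in control replicates 1 and 6 with 9 counts each, static-array replicate 3 with 7 and static-array replicate 2 with 5. No group had Pax7 in all its libraries except the static array, and the highest rate was 11.4 CPM in static-array replicate 3. Summed dorsal neural progenitor markers, led by Pax6 and Msx1 in median TPM, stood at 140 CPM in that library. The deeper libraries had 19.9 to 44.0 CPM. Pax6 had 3185 counts over all libraries and every other gene of the list at most 159, so these sums mainly follow Pax6. In static-array replicate 3 Pax6 had 45 counts. Olig3 and Msx2, singled out after their values were seen, had 10 each there. The part of dorsal neural progenitors in the Pax7 counts was not tested.

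Myf5, an early myogenic regulator, was detected in 5 libraries. Control replicate 1 had 14 counts, and low-intensity replicates 1, 2 and 5 had 7, 6 and 4. High-intensity replicate 3 had 1 count, and both array groups had 0. Pooled over its libraries, low intensity had 1.24 CPM against 0.806 in the controls, whose counts all came from 1 library.

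Myod1, the regulator that commits cells to muscle, had 0 counts in all 6 controls. Low-intensity replicate 5 had 11 counts and was the only library of its group with any. The high-intensity replicates had 0, 7, 10, 0, 0 and 1 counts in order, so that replicates 2 and 3 held nearly all of them. The static array had 1, 0, 5 and 1 counts and the actuated array 0, 2, 1 and 1. Over the group, high intensity had 1.37 CPM, at least 7.96-fold higher than the control limit of 3 counts in all 6 libraries (0.173 CPM), and at least 4.40-fold without replicate 3. For low intensity the bound of 4.65-fold rests on replicate 5, without which no count remains. Myogenin (Myog), which acts as myoblasts fuse, had 4 counts in total: 1 in low-intensity replicate 4, 1 in high-intensity replicate 3 and 2 in static-array replicate 4.

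Of the membrane proteins, Chrna1, the subunit of the muscle acetylcholine receptor that binds the transmitter, had at least 1 count in each of the 4 other groups and none in the controls. All 6 controls had 0 counts of it. The low-intensity replicates had 49, 7, 2, 2, 61 and 0 counts in order, and the high-intensity replicates 1, 0, 16, 0, 2 and 0. In the static array the counts were 2, 0, 4 and 0, and in the actuated array 0, 0, 0 and 1. Pooled, the actuated array had 0.0293 CPM, below the control limit of 0.173 CPM (3 counts in all 6 libraries). The deeper static-array libraries had 0.0683 CPM, below the limit of 0.188 CPM in the deeper controls. Neither can be set apart from the controls by these counts. All 5 deeper low-intensity libraries thus had counts, while all 5 deeper controls had none. How many of all genes part these groups in this way was not counted. The rates differed widely: replicate 5 had 19.7 CPM and replicate 1 had 13.6, against 0.697 to 2.73 in replicates 2, 3 and 4. In replicates 3 and 4 the 2 counts are within the 3-count limit of a library at 0. Across all libraries 85.7% of the 147 Chrna1 counts came from low-intensity replicates 5 and 1 and high-intensity replicate 3.

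Pooled over 6 libraries, low intensity had 8.84 CPM of Chrna1, at least 51.2-fold higher than the control limit. Without replicate 5 the bound was 32.8-fold, and without replicate 1 it was 41.4-fold. High intensity had 1.45 CPM, at least 8.40-fold higher, but without replicate 3 only 3 counts were left, which is the limit itself. The static array had 6 counts, 4 of them in its shallow replicate 3. The promoter of Chrna1 is shown because it had the lowest p of the 2 members that had enough counts to be tested over all libraries. Its start also lies beside several E-boxes, the sequence CANNTG to which myogenic regulators such as Myod1 and Myog can bind. The window holds 250 bases before and 50 after the RefSeq start, on the minus strand of GRCm38.p6 at chr2:73580289-73580588, with each CANNTG in capitals; they begin 92, 73 and 44 bases before the start, and the first and last read CAGCTG.
Chrna1: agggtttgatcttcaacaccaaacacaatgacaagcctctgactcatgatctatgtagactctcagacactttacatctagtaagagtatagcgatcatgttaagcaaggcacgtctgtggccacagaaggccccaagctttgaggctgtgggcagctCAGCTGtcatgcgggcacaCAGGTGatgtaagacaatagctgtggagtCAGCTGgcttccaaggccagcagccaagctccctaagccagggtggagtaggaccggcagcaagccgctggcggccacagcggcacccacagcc

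Cdh15 encodes M-cadherin, an adhesion protein of myoblasts and satellite cells. The controls had 0, 0, 0, 0, 0 and 9 counts, the low-intensity replicates 5, 6, 0, 1, 67 and 0, and the high-intensity replicates 0, 0, 27, 0, 1 and 0. The static array had 3, 1, 0 and 11, and the actuated array 4, 2, 3 and 2. Low-intensity replicate 5, at 21.7 CPM, and high-intensity replicate 3, at 10.6 CPM, stood far above their own groups, and the remaining deeper libraries were between 0 and 2.51 CPM. The groups overlap, since each had libraries with few or no counts.

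The pooled rate of Cdh15 in low intensity was 11.1-fold that of the controls, and 2.19-fold without replicate 5. In high intensity it was 4.13-fold, with 1 count left when replicate 3 is removed. On the other side, all 9 control counts lie in replicate 6; without that library the controls are at 0 and the bounds are at least 26.5-fold for low and at least 9.83-fold for high intensity. The promoter of Cdh15 is printed for comparison with Chrna1, because both genes were highest in low-intensity replicate 5. It lies on the plus strand of GRCm38.p6 at chr8:122848124-122848423, with 4 E-boxes in capitals that begin 236, 135, 32 and 2 bases before the start, none of them CAGCTG.
Cdh15: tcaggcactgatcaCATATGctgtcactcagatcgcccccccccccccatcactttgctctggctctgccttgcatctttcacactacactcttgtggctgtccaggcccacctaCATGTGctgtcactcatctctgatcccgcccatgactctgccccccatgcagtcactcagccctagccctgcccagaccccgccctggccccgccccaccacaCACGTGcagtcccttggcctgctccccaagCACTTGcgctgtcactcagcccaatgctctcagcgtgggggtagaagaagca

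E-boxes are common in such windows, so their presence is a description and no sign of a bound site. In RefSeq promoters of this length, CANNTG was present in 72.3% of 32851 and CAGCTG in 16.3%; both motifs read the same on either strand, and CAGCTG is one form of CANNTG. Of the 10 genes 9 matched a RefSeq promoter entry, all but Myod1, and of these 7 held CANNTG and 4 held CAGCTG (Chrna1, Acta1, Ckm and Des). Pax7 and Myf5 held neither in this window.

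Some other genes of the muscle lineage were high in the same few libraries, and many were not. Low-intensity replicates 1, 2 and 5 and high-intensity replicate 3, grouped after their values were seen, are 4 of the 21 deeper libraries. They held the highest deeper rate of 6 of 13 muscle regulators and fusion genes, 4 of 9 junction genes, 7 of 28 sarcomere genes and 4 of 17 detected genes of excitation, membrane and metabolism. The same share over all genes was not computed, so these counts have no baseline and are no result about the lists. The summed rates overlapped: the regulators had 72.1 to 102.2 CPM in the 4 libraries and 39.3 to 95.4 in the other deeper ones, and the sarcomere list 106 to 303 against 39.7 to 203. Mef2c, the regulator with the highest median TPM, had 33.3 CPM in low-intensity replicate 5 and 38.3 in high-intensity replicate 3, within its 30.8 to 48.8 in the deeper controls. Itga7, the integrin alpha subunit through which muscle cells attach to laminin, had 45.9 CPM in low-intensity replicate 5, 32.8 in replicate 1, 27.8 in high-intensity replicate 3 and 20.3 in low-intensity replicate 2. Its deeper controls ran from 2.73 to 11.5 CPM, and low-intensity replicate 4 stood above them too, at 17.4 CPM. Over the deeper high-intensity libraries Itga7 ran from 5.81 to 27.8 CPM with a median of 12.4. Eno3, the enolase of muscle, had 39.1 CPM in high-intensity replicate 3, 23.9 in low-intensity replicate 1, 19.4 in replicate 5 and 11.7 in replicate 2, with 0 to 3.52 CPM in the deeper controls. Eno3 in the remaining deeper libraries stayed at or below 6.04 CPM.

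Tnnt2, the troponin T of heart and developing skeletal muscle, was, among the deeper libraries, highest in the same 4, with 22.2 CPM in low-intensity replicate 1, 14.4 in replicate 2 and 13.3 in high-intensity replicate 3, against 0.530 to 4.76 in the deeper controls. Heart muscle markers as a list, led by Myh7 and Tnnt2, summed to 16.8 to 26.9 CPM in those 4 libraries and to less in every other deeper library, with 3.04 the lowest. Tnnt2 is on that list, and the part of heart-like cells in these counts was not tested.

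Of the remaining subunits of the muscle acetylcholine receptor 3 had few counts; they were singled out after their values were seen. Over all libraries Chrnd had 8 counts, Chrng 10 and Chrne 8, and none of the 3 had more than 1 count in low-intensity replicates 1, 2 and 5 or high-intensity replicate 3. Chrnb1, the beta subunit, had 108 counts in 18 libraries. The most were 13 each in actuated-array replicates 1 and 2, which have larger totals, then 11 in low-intensity replicate 1 and 10 in high-intensity replicate 3. Chrnb1 exceeded Chrna1 in some libraries (8 counts against 7 in low-intensity replicate 2, 9 against 1 in high-intensity replicate 1). Over the deeper libraries edgeR fitted Chrnb1 at 2.97 on the log2 scale in low intensity (SE 1.12, adjusted p = 0.191) and 2.47 in high intensity (SE 1.17, adjusted p = 0.302) against control. Musk and Mymk were also singled out after their values were seen. Musk, another gene of the junction list, had 44 counts in 8 libraries. Of these 17 lay in high-intensity replicate 3, 11 in control replicate 1 and 7 in low-intensity replicate 5, with 0 in low-intensity replicates 1 and 2. Mymk, which drives myoblast fusion, had 5 counts in all.

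**Figure D2:**
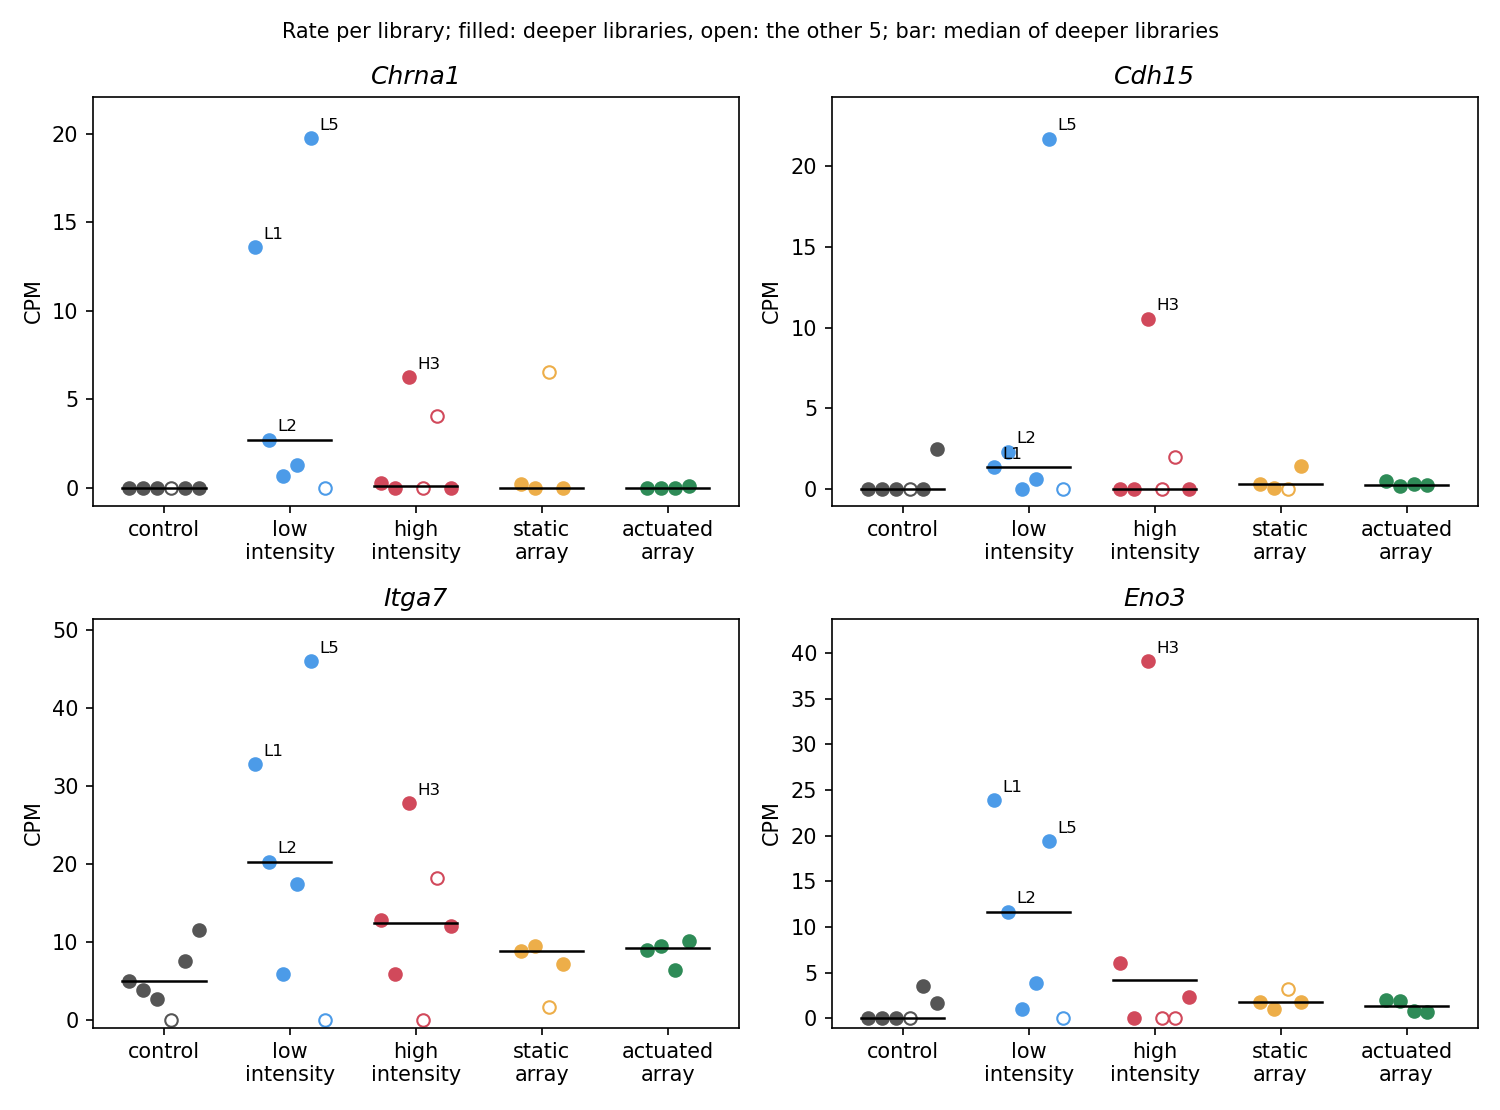
Rate in CPM on linear axes of Chrna1, Cdh15, Itga7 and Eno3 in every library by group (filled points, deeper libraries; open points, the other 5, with low-intensity replicate 6 at 0 in each panel; bars, medians of the deeper libraries). Low-intensity replicates 5, 1 and 2 (L5, L1, L2) and high-intensity replicate 3 (H3) are marked. L5 and H3 are the highest deeper points for Cdh15 at 21.7 and 10.6 CPM, and all 4 libraries head the Eno3 panel. Itga7 and Eno3 do not stand for their lists. Mef2c and Dysf, which lead those lists in median TPM, are not shown, and Mef2c in L5 and H3 lay within the range of its deeper controls.

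Among the contractile and metabolic proteins, skeletal actin (Acta1) had few counts, spread over all groups. The controls had 13, 0, 0, 0, 3 and 5, low intensity 3, 7, 0, 2, 5 and 0, and high intensity 17, 0, 9, 0, 1 and 5. The static array had 4, 0, 0 and 11 and the actuated array 3, 1, 14 and 4. The pooled rate was 2.02-fold that of the controls in high intensity, 1.03-fold in low intensity, 0.415-fold in the static array and 0.534-fold in the actuated array. Without control replicate 1 the same values were 4.16-fold, 2.11-fold, 0.853-fold and 1.10-fold. In the other direction, low intensity was 0.744-fold without its replicate 2, the static array 0.149-fold without its replicate 4 and the actuated array 0.265-fold without its replicate 3. All groups overlap.

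Embryonic myosin (Myh3), an early isoform of forming fibres, had 61 counts in 16 libraries and at most 8 in any. It was present in all 8 array libraries, with 1 to 8 counts each, in 5 of 6 high-intensity libraries with 16 counts in all, in low-intensity replicates 1 and 5 with 7 and 3, and in 1 of 6 controls with 2. Pooled, high intensity had the highest rate with 1.22 CPM, beside 0.731 in low intensity (0.298 without its replicate 1), 0.528 in the actuated array, 0.502 in the static array and 0.115 in the controls. Total counts over all genes were higher in the array libraries than in all others, apart from static-array replicate 3. In CPM of Myh3 the deeper array libraries held 0.102 to 0.887. The 5 controls at 0 had 3-count limits of 0.838 to 2.06 CPM. Muscle creatine kinase (Ckm), an enzyme of mature fibres, had 6 counts in total: 2 in control replicate 5, 1 in low-intensity replicate 4 and 3 in actuated-array replicate 3.

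Des was the one abundant gene of the 10. The control replicates had 34, 61, 22, 0, 138 and 70 counts, low intensity 138, 236, 19, 35, 392 and 0, and high intensity 594, 410, 262, 1, 41 and 51. The static array had 455, 77, 15 and 853 counts and the actuated array 110, 258, 12 and 183. In the deeper libraries the highest rates were 170.3 CPM in high-intensity replicate 2, 149.6 in high-intensity replicate 1, 127 in low-intensity replicate 5, 110.4 in static-array replicate 4 and 102 in high-intensity replicate 3. The lowest was 1.32 CPM in actuated-array replicate 3. High-intensity replicate 6, at 14.9 CPM, lay below 3 of the 5 deeper controls, so that the groups overlap.

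Pooled, the Des rate was 5.55-fold that of the controls in high intensity, 3.20-fold in low intensity, 2.50-fold in the static array and 0.882-fold in the actuated array. Control replicate 5 had 60.7 CPM, above the 7.51 to 19.6 of the other deeper controls; without it these were 8.38-fold, 4.84-fold, 3.78-fold and 1.33-fold, the last turning from below to above 1. The static array rests on replicate 4 with 853 of its 1400 counts: without it the fold was 1.32, and without replicate 2 it was 4.23. The actuated array was 1.18-fold without its replicate 3. Over the deeper libraries alone the first 3 were 5.22-fold, 2.93-fold and 2.32-fold. The promoter of Des is shown as that of the gene that holds most of the counts. It lies on the plus strand of GRCm38.p6 at chr1:75360042-75360341, with E-boxes in capitals that begin 220 and 36 bases before the start, the second reading CAGCTG.
Des: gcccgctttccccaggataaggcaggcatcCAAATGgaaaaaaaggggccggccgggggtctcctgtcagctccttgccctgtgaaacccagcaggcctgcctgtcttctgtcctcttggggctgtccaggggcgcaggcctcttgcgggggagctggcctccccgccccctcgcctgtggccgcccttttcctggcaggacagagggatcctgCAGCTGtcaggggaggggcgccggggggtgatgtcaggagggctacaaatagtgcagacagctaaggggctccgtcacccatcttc

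Des went with genes of smooth muscle and mesenchyme from library to library. Smooth muscle markers, led by Acta2 and Tagln, had all 7 genes detected in each group, and their sum was 76.5 to 1770 CPM in the deeper libraries. Over the 21 deeper libraries, log2(CPM + 1) of Des and of the summed smooth muscle list had a Pearson r of 0.833 and a Spearman rho of 0.842; each had a permutation p of 1e-05, the smallest that 100000 permutations can give, and 2e-05 adjusted over the 2 relations computed. Without the 2 libraries farthest from the median of the marker sum r was 0.844. The permutations of both relations mixed libraries of all groups, so their p also count differences between groups. Within the 14 biochemical libraries r was 0.763 and within the 7 array libraries 0.928, without a test. Each of these sets still holds more than 1 group.

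With the fibroblast and mesenchyme list, led by Col3a1 and Col1a1 and summing to 174 to 2893 CPM, Des had r = 0.773 (permutation p = 4e-05, adjusted 4e-05) and rho = 0.721 (p = 0.00045, adjusted 0.00045). Without the 2 farthest libraries r was 0.733, within the biochemical libraries 0.754 and within the array libraries 0.801. Both rates in a relation share the library total as their divisor. The part of smooth muscle or mesenchymal cells in the Des differences was not tested. Summed smooth muscle markers had a median of 244 CPM in the deeper controls, 365 in low intensity, 726 in high intensity, 254 in the static array and 175 in the actuated array.

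**Figure D3:**
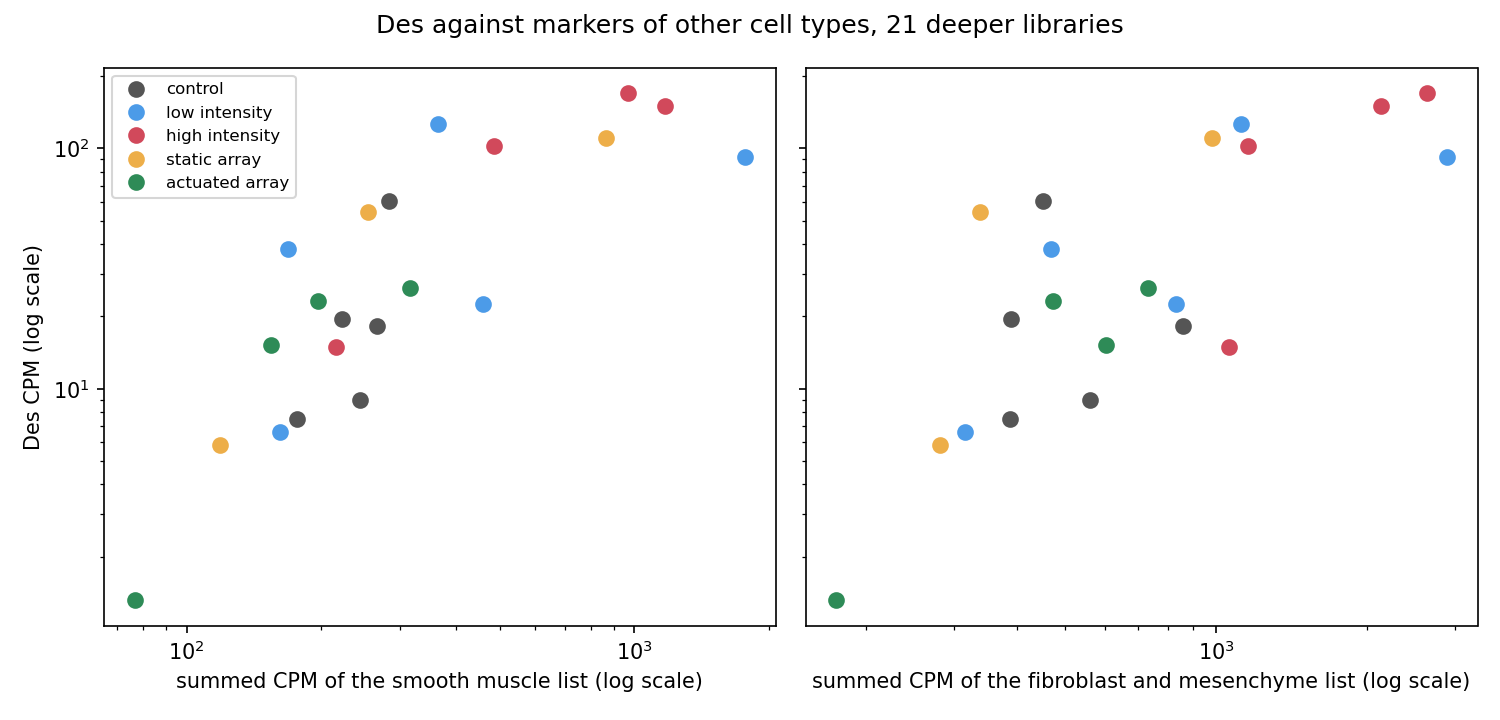
Des rate in CPM against the summed CPM of the smooth muscle list (left) and of the fibroblast and mesenchyme list (right), both axes on log scales, 1 point for each of the 21 deeper libraries coloured by group. Des rises with both sums, with r of 0.833 and 0.773 on the log2(CPM + 1) scale, from actuated-array replicate 3 at 1.32 CPM to high-intensity replicate 2 at 170.3.

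The genes whose pattern was most like that of Des over the 21 deeper libraries, by Pearson r of log2(CPM + 1), were Thbs1 (r = 0.908), Filip1l (0.883) and Col5a2 (0.878). For Chrna1 they were an unnamed gene, ENSMUSG00000121430 (0.955), the pseudogene Rps2-ps10 (0.938) and Dcaf8l (0.935). Those 3 values rest on the biochemical libraries: within the 7 array libraries r was 0.226, -0.271 and -0.378. These are descriptions of the most alike of all fitted genes and carry no test.

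The comparisons the groups allow were tested with edgeR over all genes, and no member passed an adjusted p of 0.05 in any of them. Over all 26 libraries the low-count filter kept 14907 genes, among them Chrna1 and Des, and dropped the other 8. Of all genes 0.0402% were called in high intensity against control, 0.0268% in low intensity against control and 0.0134% in the static array against control, with 0% in high against low intensity and 0% in the actuated against the static array. At an unadjusted p under 0.05 stood both fitted members in the first of these, Chrna1 alone in low intensity and in the static array against control, and neither in the last 2; of all genes, 1049, 780, 785, 434 and 575 did so. Chrna1, at 0 counts in every control, passed the filter only through the other groups. Its small p against control partly follows from that selection. The comparisons with control share the same 6 control libraries. DESeq2 and limma-voom with quality weights called no member either.

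Chrna1 came nearest in low intensity against control. Its fitted log2 fold change was 7.94 (SE 1.94), with an edgeR p of 0.000244 and an adjusted p of 0.164; over alternative settings and tools the adjusted p ran from 1.02e-05 to 1.00. In high intensity against control it was 5.93 (SE 1.99, adjusted p = 0.344 by edgeR, 0.0155 to 1.00 over the alternatives), and in high against low intensity it was -2.01 (SE 1.27, adjusted p = 1.00). Because the controls are all at 0, the first 2 fitted changes depend on the prior count and are no bound. The static array against control gave 4.76 (SE 2.26, edgeR adjusted p = 0.907), but 1.94 (SE 2.31) over the deeper libraries, without static-array replicate 3 and its 4 counts.

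For Des the fit gave 2.04 on the log2 scale (SE 0.70, adjusted p = 0.349 by edgeR) in high intensity against control and 1.31 (SE 0.70, adjusted p = 1.00) in low intensity against control. In high against low intensity it was 0.73 (SE 0.68) and in the static array against control 1.11 (SE 0.74), each with an edgeR adjusted p of 1.00. The actuated against the static array gave -1.61 (SE 0.82, adjusted p = 1.00 by edgeR), the one comparison with a lower value for Des. Its adjusted p over alternative settings ran from 2.41e-25 to 1.00 in high intensity against control, where the lowest came from the deeper libraries with no low-count filter in edgeR.

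Over the 21 deeper libraries edgeR kept 14730 genes and 4 members, Chrna1, Des, Myod1 and Acta1, and again called none of them. The background there was 0.597% of genes called in low intensity against control, 0.462% in high intensity against control, 0.713% in the static array against control, and 0% in both other comparisons. At an unadjusted p under 0.05 were 2 of the 4 in the first of these (Chrna1 and Myod1), 3 in the second (Chrna1, Myod1 and Des), 0 in the third, and 0 and 1 (Des) in high against low intensity and the actuated against the static array. Of all genes 2237, 2349, 1850, 1131 and 56 did so in the same order. Chrna1 and Myod1, at 0 counts in every control, passed the filter only through libraries of the other groups. Their small p against control partly follows from that selection, so the shares of members and of all genes are not comparable. Chrna1 in low intensity against control was fitted at 8.33 on the log2 scale (SE 1.95), and its adjusted p by edgeR was 0.0548, just outside the threshold. When each deeper library was left out in turn, the edgeR adjusted p of Chrna1 lay between 0.0282 and 0.0865 and was under 0.05 in 4 of 18 fits, those without low-intensity replicate 3 or 4 or high-intensity replicate 2 or 6. In the other 3, without low-intensity replicate 1 or 5 or high-intensity replicate 3, the filter dropped Chrna1 and there was no fit.

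Over the deeper libraries Myod1 was fitted at 6.16 on the log2 scale (SE 2.19, adjusted p = 0.165 by edgeR) in high intensity and 5.03 (SE 2.24, adjusted p = 0.286) in low intensity against control, both against controls at 0. For Acta1 the edgeR adjusted p lay between 0.772 and 1.00 in the 5 comparisons. Des in high intensity against control was 2.17 (SE 0.80, edgeR adjusted p = 0.171).

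**Figure D4:**
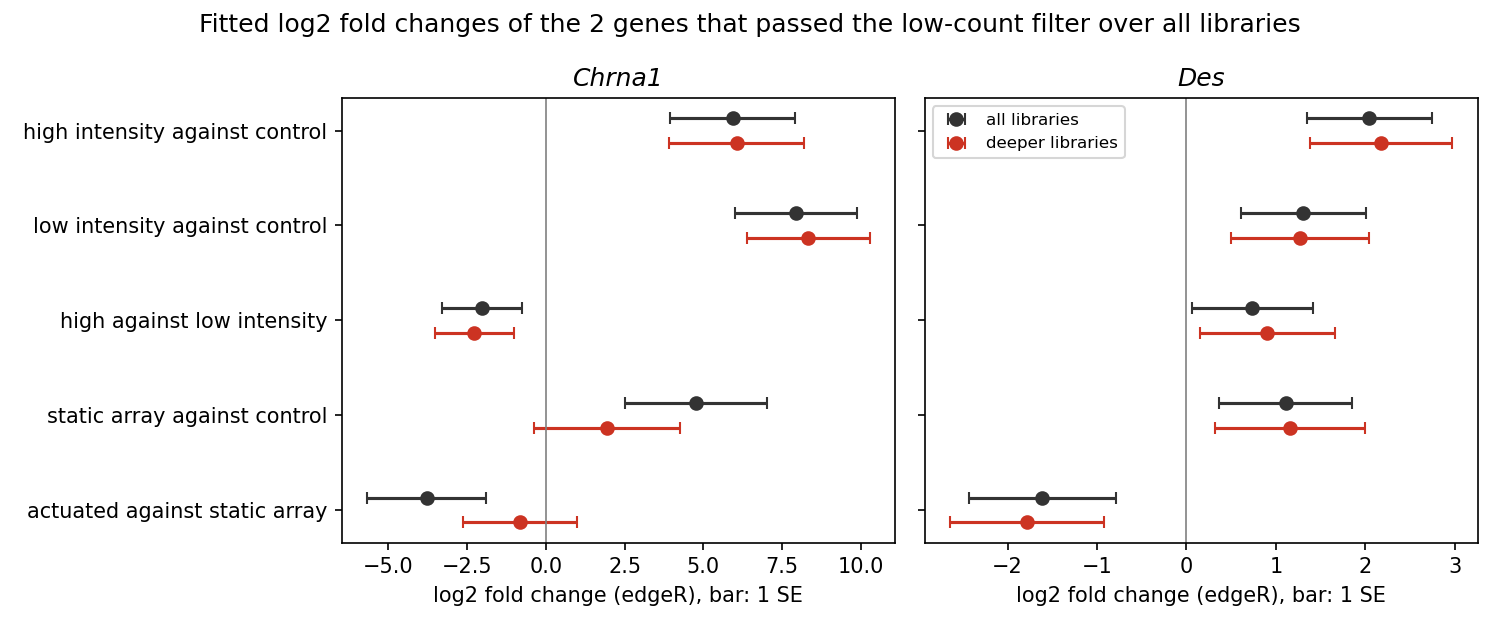
Fitted edgeR log2 fold changes with bars of 1 SE for Chrna1 (left) and Des (right) in the 5 comparisons, over all libraries (dark) and over the deeper libraries (red). Chrna1 is highest in low intensity against control, at 7.94 and 8.33, and its static-array values drop from 4.76 to 1.94 once static-array replicate 3 is left out; no point has an adjusted p under 0.05.

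The other muscle genes gave no call in these fits either. Of 13 muscle regulators and fusion genes edgeR fitted 5 over all libraries, of 9 genes on the muscle side of the neuromuscular junction 1, of 28 sarcomere genes 10 and of 18 genes of excitation, membrane and metabolism 6; none was called in any of the 5 comparisons over all or over the deeper libraries. In low intensity against control over the deeper libraries the median log2 fold change was 0.83 for the 5 fitted regulators, 1.50 for 2 junction genes, 0.47 for 9 sarcomere genes and 0.74 for 6 genes of excitation, membrane and metabolism, beside -0.01 over all fitted genes. The same medians in high intensity were 0.85, 1.24, 0.19 and 0.48, beside 0.00. In the static array against control they were -0.23, 0.48, -0.56 and 0.51. These medians cover only genes that passed the low-count filter, which genes low in the controls can pass through the other groups. Chrnb1, 1 of the 2 junction genes, had at most 3 counts in any control. A shift of a list was not tested.

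Several genes of these lists are also made outside muscle, and those held the highest levels. By median TPM over all libraries the regulators were led by Mef2c (31.3), a transcription factor also found in neurons, Eya1 (2.75) and Itga7 (2.60). The junction genes were led by Lrp4 (24.5), the agrin receptor, Dok7 (0.758) and Chrnb1 (0.348). Sarcomere genes were led by the tropomyosin Tpm2 (46.9), which smooth muscle also makes, Myh7 (2.54) and Myl4 (1.72), and the last list by the membrane repair protein Dysf (5.74), Eno3 (2.08) and the calcium pump Atp2a1 (0.909).

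Over the deeper libraries, where 0.462% and 0.597% of all genes were called in high and low intensity against control, the smooth muscle list had 1 of 7 genes called, Smtn, which was singled out after its values were seen. It was higher than in the controls in high intensity, by 2.28 on the log2 scale (adjusted p = 0.0357 by edgeR), and in low intensity, by 2.11 (adjusted p = 0.0305 by edgeR). Over all 26 libraries none of the 7 was called, and the edgeR adjusted p of Smtn was 0.161 in high and 0.164 in low intensity. No gene of the fibroblast and mesenchyme list, the heart list or the paraxial mesoderm list, led by Tcf15 and Foxc2, was called. Paraxial mesoderm markers, of the tissue that gives rise to trunk muscle, summed to 0.955 to 8.99 CPM in the deeper libraries. Of the motor neuron list, led by Slc18a3 and Slit2, edgeR fitted 7 genes over the deeper libraries. In the static array against control 2 of them were called, both lower, beside 105 of all 14730 genes, 61 of them lower.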

How the data were processed

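RNA from 26 spheroid libraries was sequenced with paired reads of 50 bases after a low-input preparation from 4 ng RNA, with full volume for the 8 samples of lowest concentration, per the labels' protocols. The submitters' processing notes name STAR, Salmon, BWA 0.7.12-r1039, bedtools 2.25.0 and the builds mm10, hg19 and GRCm39 with no role, so which aligner, annotation and strand setting made these tables is not given in the sources used here. The deposited tables hold estimated counts per gene, used as whole numbers, and TPM values scaled by the authors to 1000000 per library. Total counts ran from 1536 to 13162635 per library; precision is limited accordingly, and no molecular identifiers are mentioned. A value was at 0 counts exactly where it was at 0 TPM for every member.

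The 10 members and all gene lists were chosen with earlier results of these data known. CPM is a gene's count per 1000000 of all counts in its library, mitochondrial and rRNA genes included. Column names for the low and high intensity groups were matched to titles by first letter and number. edgeR 4.0.16 (R 4.3.3) fitted all 26 libraries with 1 coefficient per group: filterByExpr, TMM, quasi-likelihood F-test, Benjamini-Hochberg adjustment over all fitted genes, threshold 0.05. The same fit was run on the 21 deeper libraries (over 1000000 protein-coding counts), a choice made with results known. The fit was tested on simulated data. DESeq2 1.42.0, limma 3.58.1 on voom values and on log2(TPM + 0.1) and log2(TPM + 1), other filters and normalizations, only the groups compared, a replicate block and leaving out each library were alternatives. Correlations used log2(CPM + 1). Among 57 pairs of libraries within a group, none agreed within counting noise (lowest chi-square per degree of freedom 4.74).

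The text names all 10 members; of 4 further muscle lists every called gene and the 3 of highest median TPM; of the lists of other cell types the summed level and the 2 of highest median TPM; and for each fitted member with most counts the 3 most alike genes. Others are marked as singled out. Promoters are RefSeq sequences of GRCm38.p6.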

Additional observations from a re-analysis of the deposited data

Results flagged for a closer look

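Within single groups, 10 values of these genes lay far from the rest of their group, of 47 groups of values examined; chance gives about 1 in 20 for continuous values, but where all other libraries are at 0 a single library with counts stands apart by construction, so that rate does not hold here. In low-intensity replicate 5, Cdh15 had 21.7 CPM and Myod1 3.56 CPM, the latter with 0 in all other libraries of the group. High-intensity replicate 3 stood apart for Cdh15, at 10.6 CPM. Among the controls, Myf5 had 3.71 CPM in replicate 1 and Cdh15 2.51 CPM in replicate 6, each from the only control library with a count, and Des had 60.7 CPM in replicate 5.

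The other 4 came from static-array replicate 3, which had 613344 counts against 7724923 to 13162635 in the rest of its group. Its rates were 11.4 CPM for Pax7, 8.15 for Myod1, 6.52 for Chrna1 and 8.15 for Myh3, from 7, 5, 4 and 5 counts. In the same library the summed sarcomere list was 695 CPM, the paraxial mesoderm list 39.1 and the dorsal neural progenitor list 140, each above every deeper library; the part of depth in these values was not tested.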

How the results depend on the processing

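No member was called in any comparison, and 36 to 38 of 39 alternatives per comparison gave 0 as well. With no low-count filter, edgeR called 1 member in the actuated against the static array (Des), 1 in high intensity against control (Des) and 1 in low intensity against control (Chrna1). With only the groups compared it called 1 in low intensity against control (Des), and Chrna1 was not fitted. The deeper libraries with no filter, added after seeing the data, gave 1 in the actuated against the static array, 1 in high against low intensity and 1 in the static array against control (Des each time), and 2 each in high and low intensity against control (Chrna1 and Des); the cause was not tested. Over all genes, calls ranged from 0 to 1137, 0 to 700, 0 to 660, 0 to 126 and 0 to 459 over the alternatives (actuated against static array, high and low intensity against control, high against low, static array against control). DESeq2 called 33, 77, 18, 7 and 8 genes and limma-voom 0, 0, 0, 0 and 42. Chrna1 in the static array against control turned to -0.53 on the log2 scale under limma-voom, and in the actuated against the static array over the deeper libraries it ran from -1.91 to 1.09 when each library was left out, the last without static-array replicate 1. The median summed rate without Des was 5.01 CPM in high intensity, 2.83 in the static array and 1.57 in the actuated array. With Des and in TPM, the median summed rate was 5.61 times the control median in the static array (3.08 in CPM) and 1.82 times in the actuated array (1.11 in CPM). A replicate block left 0 members called in each comparison. Same-numbered libraries correlated from -0.221 to 0.254 in their deviations from the group means. Differently numbered libraries were not compared, so whether the numbers pair the libraries cannot be told from these values. Depth limits all 9 members other than Des.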
